A study of Mus musculus with 12 samples.

Results

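Transcript levels of Rag1 knockout group 2 innate lymphoid cells (ILC2s) were compared between 20 and 8 weeks after marrow transplant. All libraries whose labels give the Rag1 knockout genotype were used, 3 of 20 weeks and 3 of 8 weeks, which are 6 of the 12 libraries of the series; the other 6 are wild-type (WT) cells of the same times. Irradiated CD45.1 congenic recipients (950 cGy) had received a mixture of CD45.2 Rag1-/- marrow and CD90.1 WT marrow, so that both genotypes developed in mixed chimeras; the strain is labelled C57BL6 and the knockout cells carry CD90.2. Every group, the WT controls included, was treated with IL-33, the cytokine that expands ILC2s, daily for 7 days (30 ng under the skin of each cheek, 240 ng intraperitoneally), and ILC2s were then sorted from skin-draining lymph nodes. The sample labels put the later time at 20 weeks and the series text gives another length; the sample labels were followed. They do not say that the replicates of a group were separate animals, nor which libraries share one, and the p-values measure library-to-library spread only, which may be technical. Neither the ages of the mice nor the deleted part of Rag1 is stated in the labels, and transplant time cannot be told apart from anything else that differed between the 8-week and 20-week mice.

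ILC2s are lymphocytes without a rearranged antigen receptor that answer tissue cytokines such as IL-33 by releasing IL-5 and IL-13, and they depend on the transcription factor GATA3. Immediate early genes are a separate class: they are transcribed within minutes of a stimulus, from factors already in the cell, and include the FOS, EGR and NR4A transcription factors and feedback inhibitors such as DUSP1. Interferon-stimulated genes, induced by interferon through STAT and IRF factors, encode antiviral proteins.

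The 6 knockout-labelled libraries held 16397951 to 32529806 estimated reads. One of them, replicate 3 of 8 weeks, stood apart: the 10 genes with most reads made up 24.5% of its total (range over the rest of the series, 8.85% to 15.03%), and Actb alone took 18.3%. Its mean correlation with the other libraries of its group was 0.920, the lowest among the knockout-labelled libraries. WT 8-week replicate 2 was lower still, at 0.914, and is the other library said below to stand apart. Results are therefore given with and without knockout 8-week replicate 3. Rag1 itself, the recombinase gene named by the genotype, was at 0.381, 0.540 and 0.461 CPM (counts scaled to library size by trimmed-mean, TMM, factors) in the 20-week libraries labelled knockout and at 0, 0.701 and 0.994 in those of 8 weeks, while all 6 WT libraries were at 0. Rag1 reads in libraries labelled knockout go against that label unless they come from outside the deleted part, which was not tested, so the libraries are called knockout-labelled. Thy1, which encodes CD90, was at 16.8 to 37.7 CPM in the knockout-labelled libraries and at 2.94 to 5.67 CPM in the WT libraries. Markers of ILC2s were present in every library: Gata3 at 784 to 1356 CPM, the IL-33 receptor gene Il1rl1 at 202 to 335, Klrg1 at 1194 to 1769 and Rora at 190 to 247. Cd3e, which marks T cells, was at or below 0.409 CPM in all 6, but it does not stand for the other T-cell markers. The 17 autosomal genes of a T-cell list summed to 1164 to 1396 CPM at 20 weeks and 856 to 1455 CPM at 8 weeks.

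The main finding was a fall of 9 genes at 20 weeks, 5 of them in the immediate early list. In edgeR's quasi-likelihood test on all 12 libraries, 9 of 13831 autosomal genes (0.0651%) passed an adjusted p under 0.05, all lower at 20 weeks; 726 genes (5.25%) were lower and 433 (3.13%) higher at an unadjusted p under 0.05. DESeq2 called 111 lower and 31 higher. By the fitted fold change the 9 were 3.48-fold to 14.6-fold lower, with edgeR adjusted p of 0.0133 to 0.0355. For all 9 the 3 libraries of 20 weeks lay below the 3 of 8 weeks, a separation that 8.18% of all tested genes showed in that direction. Without 8-week replicate 3 all 9 were called again, among 25 lower (0.172%) and 2 higher of 14494 genes (0.186% in either direction).

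The promoters of 3 of these genes are shown because the genes moved together and share a short element. Each is the RefSeq sequence of the 250 bases upstream of the start (GRCm38.p6), written 5' to 3' on the gene's strand, with every copy of TGACG, the core bound by CREB and ATF factors, in capitals on either strand.

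Fos, chr12:85473640-85473889, plus strand: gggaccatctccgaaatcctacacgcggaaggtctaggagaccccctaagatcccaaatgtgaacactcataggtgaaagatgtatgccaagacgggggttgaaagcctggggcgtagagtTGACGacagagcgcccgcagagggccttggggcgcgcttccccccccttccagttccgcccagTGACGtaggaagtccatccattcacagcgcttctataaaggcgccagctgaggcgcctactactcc
Nr4a1, chr15:101266596-101266845, plus strand: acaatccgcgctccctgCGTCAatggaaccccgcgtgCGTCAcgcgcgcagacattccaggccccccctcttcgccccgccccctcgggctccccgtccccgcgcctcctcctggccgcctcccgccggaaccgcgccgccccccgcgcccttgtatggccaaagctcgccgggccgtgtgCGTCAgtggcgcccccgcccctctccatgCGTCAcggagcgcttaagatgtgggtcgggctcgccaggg
Nr4a2, chr2:57124004-57124253, minus strand: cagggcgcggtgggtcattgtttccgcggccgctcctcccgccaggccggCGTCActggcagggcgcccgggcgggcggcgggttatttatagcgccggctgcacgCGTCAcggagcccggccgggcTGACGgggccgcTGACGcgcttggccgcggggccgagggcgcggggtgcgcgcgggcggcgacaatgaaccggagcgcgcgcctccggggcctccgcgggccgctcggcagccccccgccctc

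TGACG, searched on both strands, occurred in 6 of the 7 called genes that RefSeq promoters matched, in 14 of 21 matched immediate early genes and in 20.0% of all 25748 genes with such a promoter. The full palindrome TGACGTCA, which contains this core, was in 1 of the 7, in 4 of the 21 and in 1.81% of all genes. Among the matched immediate early genes the median log2 fold change, 20 over 8 weeks, was -1.61 for the 14 with the core and -0.62 for the 7 without. A match of letters is a description of the sequence and was not tested as a binding site.

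Immediate early transcription factors made up 3 of the 9. Fos, a subunit of the AP-1 factor, was at 213, 181 and 226 CPM at 20 weeks and at 901, 1040 and 510 CPM at 8 weeks. The lowest 8-week value, in replicate 3, was still above every 20-week value, and Fos fell by 1.98 on the log2 scale (SE 0.25, edgeR adjusted p = 0.0133). Nr4a1, an orphan nuclear receptor, was at 20.2, 31.3 and 22.2 CPM at 20 weeks and at 217, 209 and 87.2 CPM at 8 weeks, a log2 fold change of -2.80 (SE 0.38, edgeR adjusted p = 0.0146). Its relative Nr4a2 had the largest change of the 9: 0.244, 0.282 and 0.780 CPM at 20 weeks against 4.86, 6.04 and 7.67 CPM at 8 weeks, a log2 fold change of -3.87 (SE 0.51, edgeR adjusted p = 0.0146). At 20 weeks it was close to the 0.101 CPM that 3 reads per library are worth, so that its fold rests on few reads.

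The next 3 of the 9 encode regulators of signalling. Dusp1, a phosphatase that switches off MAP kinases, was at 29.1, 20.8 and 23.8 CPM at 20 weeks and at 79.2, 88.3 and 107 CPM at 8 weeks, a log2 fold change of -1.90 (SE 0.23, edgeR adjusted p = 0.0133). Tnfaip3, which encodes A20, the ubiquitin-editing brake on NF-kB, was at 54.7, 37.0 and 40.9 CPM at 20 weeks and at 165, 222 and 212 CPM at 8 weeks, a log2 fold change of -2.18 (SE 0.25, edgeR adjusted p = 0.0133). Replicate 3 of 8 weeks lay with the other 8-week libraries in both genes. Rasd1, a small GTPase, was low throughout, at 1.60, 1.51 and 1.09 CPM at 20 weeks and 10.9, 6.42 and 7.70 CPM at 8 weeks, a log2 fold change of -2.56 (SE 0.37, edgeR adjusted p = 0.0257). With all libraries, Dusp1 was the 1 called of 13 tested brakes on MAP kinase signalling, 6 of which were positive. Tnfaip3 was the 1 called of 18 tested NF-kB genes, 12 of which were positive. The direction of both lists turned on 8-week replicate 3. Without it 13 of the 18 NF-kB genes were negative, with a median log2 fold change of -0.10 (0.10 with it). The median of the MAP kinase brakes was 0.20 without it and -0.22 with it.

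The other 3 are a surface protein, a cell-cycle inhibitor and an enzyme. Cd69, an early activation antigen that retains lymphocytes in tissue, was at 70.2, 73.1 and 93.0 CPM at 20 weeks and at 323, 315 and 185 CPM at 8 weeks, a log2 fold change of -1.80 (SE 0.27, edgeR adjusted p = 0.0355). Cdkn1a, which encodes the cyclin-dependent kinase inhibitor p21, was at 16.7, 17.3 and 18.3 CPM at 20 weeks and at 46.3, 60.1 and 75.7 CPM at 8 weeks, a log2 fold change of -1.80 (SE 0.24, edgeR adjusted p = 0.0146). Tph1, the rate-limiting enzyme of serotonin synthesis outside neurons, was at 1.94, 2.76 and 2.00 CPM at 20 weeks and at 33.1, 15.5 and 13.3 CPM at 8 weeks, a log2 fold change of -3.21 (SE 0.41, edgeR adjusted p = 0.0133). Within the 8-week group, replicate 3 was the lowest library for 4 of the 9 genes and the highest for 3.

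**Figure D1:**
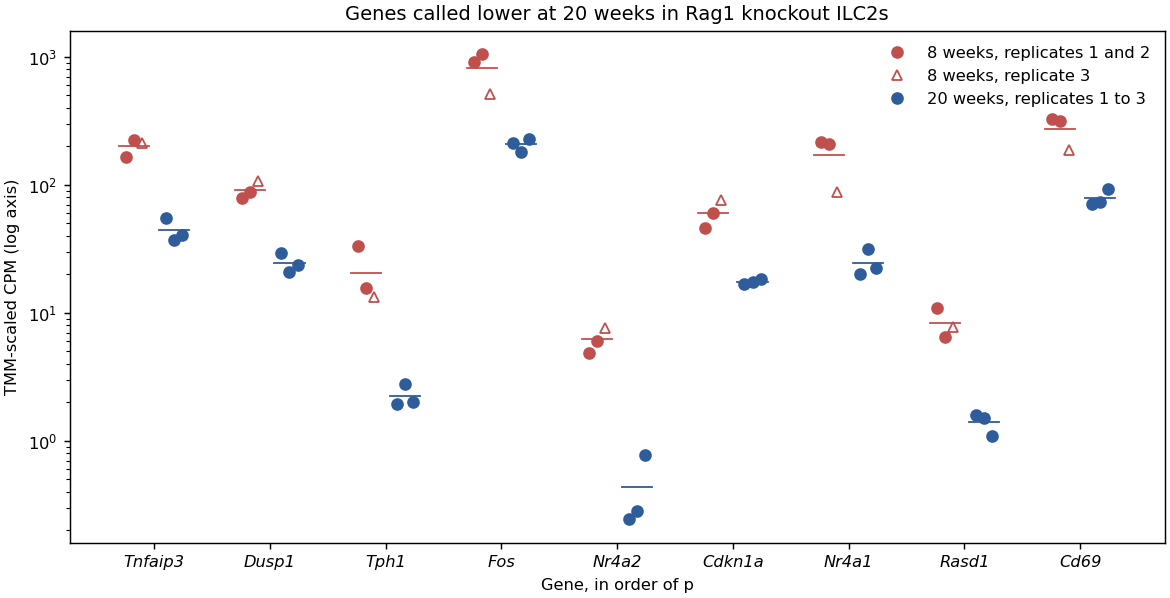
Level of the 9 called genes in the 6 knockout-labelled libraries, in TMM-scaled CPM on a log axis; each point is a library, each line a group mean, and the open triangle is 8-week replicate 3. In every gene the 20-week points lie below all 8-week points.

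These calls depend on which libraries are in the fit and on the record of how the files were made. With the 6 knockout-labelled libraries alone edgeR called no gene (1202 at an unadjusted p under 0.05). The 9 genes stayed negative there, at edgeR adjusted p of 0.115 to 0.172. With knockout-labelled libraries alone and 8-week replicate 3 left out, edgeR called 60 genes, 8 of the 9 among them. The 9 were then at edgeR adjusted p of 0.00768 to 0.0531. The file headers give the number of threads used in quantification, 24 for all 3 libraries of 20 weeks and for 8-week replicate 2, and 8 for 8-week replicates 1 and 3. With the thread number as a covariate no gene was called (721 at an unadjusted p under 0.05), and the 9 genes kept their direction at edgeR adjusted p of 0.0548 to 0.182, with log2 fold changes of -3.81 to -1.64. Among libraries of 24 threads alone, where the 8-week knockout arm is replicate 2 by itself, all 9 were negative; no knockout-labelled library of 20 weeks had 8 threads, so no value can be had there. Leaving out 20-week replicate 1, 20-week replicate 2 or 8-week replicate 2 left no gene called (842, 766 and 1134 at an unadjusted p under 0.05), and leaving out 20-week replicate 3 left 1, all 9 staying negative.

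The immediate early list as a whole was shifted down. Like the other lists, this one was chosen with earlier results of these data known, so its shift is a description and not separate support. Of its 25 tested members, 5 were called lower and none higher, 14 were lower at an unadjusted p under 0.05 (all genes, 5.25%), and 13 were lower without overlap (all genes, 8.18%). Their median log2 fold change was -0.78, against -0.0046 for all tested genes, and -1.00 without 8-week replicate 3. Atf3, at 0 in every 20-week library, has a fitted value that is no bound; set to its floor the list's median was again -0.78. Egr1, a zinc-finger factor, was at 6.52, 6.73 and 5.63 CPM at 20 weeks against 28.3, 43.7 and 13.4 CPM at 8 weeks, and Ppp1r15a, a stress-induced phosphatase subunit, at 59.7, 43.1 and 44.8 against 223, 208 and 85.3 CPM. Neither passed in edgeR on all libraries (adjusted p = 0.160 and 0.179), and both did without replicate 3 (0.0173 and 0.0106). Rgs2, a regulator of G-protein signalling, showed the same in edgeR, at 95.7, 80.1 and 98.6 CPM against 243, 219 and 168 CPM (edgeR adjusted p = 0.0215 without the library and 0.0802 with it). DESeq2 called Egr1, Ppp1r15a and Rgs2 with replicate 3 as well. The summed level of the list was 1459 to 1525 CPM at 20 weeks and 3983, 3944 and 2116 CPM at 8 weeks, with replicate 3 nearest to the 20-week libraries.

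**Figure D2:**
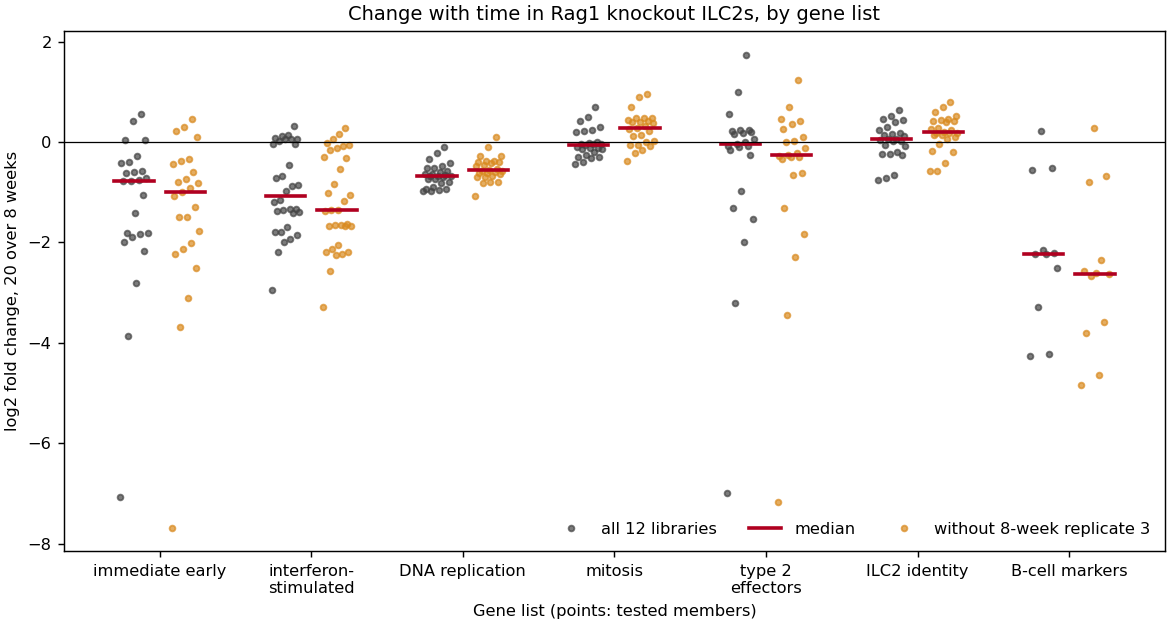
Log2 fold change, 20 over 8 weeks, of the tested members of 7 gene lists in knockout-labelled cells, with all 12 libraries (dark) and without 8-week replicate 3 (orange); red lines are medians. Immediate early, interferon-stimulated and DNA replication members lie mostly below 0, with medians of -0.78, -1.07 and -0.68 in the dark points, while the mitosis and ILC2 identity medians are -0.06 and 0.06 in the dark points and 0.28 and 0.19 in the orange; the points near -7 are fitted values of genes at 0 in every 20-week library.

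The summed level of interferon-stimulated genes was 1692 to 1754 CPM at 20 weeks and 2881, 2594 and 1579 CPM at 8 weeks, higher in 8-week replicates 1 and 2 and lower in replicate 3. Gene by gene, replicates 1 and 2 both lay above every 20-week library for 24 of 32 tested members, and replicate 3 for 15. None of the 32 passed the edgeR test on all libraries (9 did in DESeq2), 18 were lower at an unadjusted p under 0.05 and 15 were lower without overlap (all genes, 5.25% and 8.18%), with a median log2 fold change of -1.07. Without 8-week replicate 3, 5 passed, all lower (all genes, 0.172%), and the median was -1.35. Isg15, a ubiquitin-like protein, was at 8.81, 10.01 and 9.44 CPM at 20 weeks and at 54.8, 34.5 and 7.80 CPM at 8 weeks: replicate 3 lay below all the 20-week libraries. Its log2 fold change was -2.24 without that library (edgeR adjusted p = 0.0197) and -1.79 with it (0.364). Oasl1 and Oas1a, of the oligoadenylate synthetase family, had log2 fold changes of -2.56 and -1.64 without the library (edgeR adjusted p = 0.0226 and 0.0318) and -2.19 and -1.36 with it (0.207 and 0.253). Xaf1, an antagonist of the apoptosis inhibitor XIAP, and Rtp4, a chaperone of membrane receptors, had -1.35 and -2.14 without it (edgeR adjusted p = 0.0339 and 0.0471).

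With all libraries the list did not move as one. In a grouping made after the values were seen, the 8 interferon-inducible GTPases (Gbp2, Gbp3, Gbp4, Gbp5, Igtp, Irgm1, Irgm2 and Ifi47) had log2 fold changes of -0.05 to 0.31, while the other 24 members had a median of -1.34 and 22 of them were negative. The split was computed for that fit only. Without 8-week replicate 3, 29 of the 32 members were negative, against 24 with it. The promoters of Isg15 and Oas1a are shown because these genes carry the core of the interferon-stimulated response element, GAAANNGAAA, in capitals where it occurs on either strand and where copies overlap (RefSeq, GRCm38.p6, 250 bases upstream of the start).

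Isg15, chr4:156200819-156201068, minus strand: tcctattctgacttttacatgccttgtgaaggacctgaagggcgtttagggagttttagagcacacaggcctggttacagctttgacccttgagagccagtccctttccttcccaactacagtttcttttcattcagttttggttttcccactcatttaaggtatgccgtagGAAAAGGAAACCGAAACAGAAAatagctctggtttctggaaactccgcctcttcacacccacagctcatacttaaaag
Oas1a, chr5:120907526-120907775, minus strand: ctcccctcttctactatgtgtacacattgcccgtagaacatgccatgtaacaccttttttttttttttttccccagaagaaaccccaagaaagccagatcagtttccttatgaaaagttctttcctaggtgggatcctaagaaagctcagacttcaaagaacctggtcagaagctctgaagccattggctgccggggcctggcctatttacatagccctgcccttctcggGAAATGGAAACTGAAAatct

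GAAANNGAAA, searched on both strands, was present in 13 of 22 matched interferon-stimulated genes and in 3.47% of all genes. The 13 with the element had a median log2 fold change of -0.71 and the 9 without it -1.33. Gbp2, Gbp3, Gbp5, Igtp, Irgm1 and Irgm2 hold the element.

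Of the lists for other cells, that of B cells moved with these results. With all libraries, the plasma-cell, ILC3 and myeloid lists each had 1 member lower at an unadjusted p under 0.05 (all genes, 5.25%). The remaining lists for other cells had none, and some had few tested members. Of 15 B-cell markers fixed as a list, 11 were tested and no marker was at 0 in all 6 libraries. None passed the edgeR test on all libraries (4 did in DESeq2), and 8 were lower at an unadjusted p under 0.05 (all genes, 5.25%), with a median log2 fold change of -2.23. Their summed level was 168 to 204 CPM at 20 weeks and 321, 609 and 200 CPM at 8 weeks. Igkc, the kappa light chain constant region, was at 6.42, 2.67 and 2.77 CPM at 20 weeks and at 57.3, 170 and 2.18 CPM at 8 weeks, and passed in edgeR without replicate 3 (adjusted p = 0.00699; with it 0.262). The same 8-week libraries, replicates 1 and 2, were the high ones for MHC class II genes. The summed level of that list was 16067, 13878 and 8901 CPM at 8 weeks and 8877 to 11736 CPM at 20 weeks. None of its 10 members passed in edgeR. In WT cells the MHC class II sum was 18896, 21512 and 10965 CPM at 8 weeks and 7642 to 10668 CPM at 20 weeks. The B-cell sum in WT cells overlapped between the times, at 307, 388 and 178 CPM at 8 weeks and 215 to 324 CPM at 20 weeks. The part of B-cell RNA in the interferon and immediate early results was not tested. In a sorted bulk population, fewer cells of a type and less RNA per cell cannot be told apart.

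DNA replication genes were lower at 20 weeks in small steps. All 26 tested members were negative, with log2 fold changes of -0.97 to -0.10 and a median of -0.68; 19 were lower without overlap and 18 at an unadjusted p under 0.05 (all genes, 8.18% and 5.25%), but none passed in edgeR on all libraries (9 did in DESeq2). Gins2, a subunit of the replicative helicase complex, was at 39.4, 46.7 and 42.9 CPM at 20 weeks and at 95.0, 85.9 and 65.9 CPM at 8 weeks. In edgeR it passed without replicate 3 (log2 fold change -1.07, adjusted p = 0.0448) and not with it (-0.94 and 0.197). Here replicate 3 was the high library: the summed level of the list was 6681, 6757 and 10017 CPM at 8 weeks and 4178 to 5105 CPM at 20 weeks. Genes of mitosis did not show this separation. Of 25 tested members none was lower or higher at an unadjusted p under 0.05, and the median was -0.06 with all libraries and 0.28 without replicate 3. Mki67, which marks cycling cells, was at 192 to 221 CPM at 20 weeks and 143 to 248 CPM at 8 weeks.

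**Figure D3:**
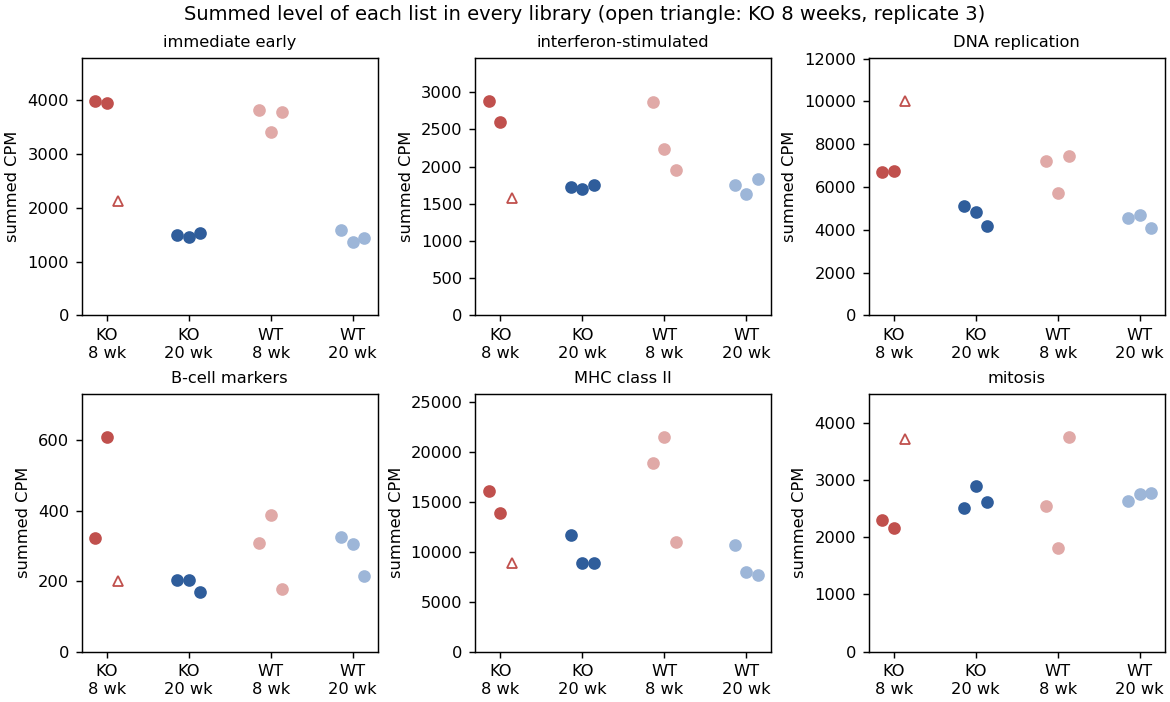
Summed CPM of 6 gene lists in each of the 12 libraries, knockout-labelled (KO) and wild-type (WT), at 8 and 20 weeks; axes start at 0 and the open triangle is knockout 8-week replicate 3. That library is the lowest of its group for immediate early, interferon-stimulated, B-cell and MHC class II genes and the highest for DNA replication and mitosis genes.

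Type 2 effector genes did not move together. Of 23 tested members 1, Tph1, was called in edgeR (all genes, 0.0651%) and 4 in DESeq2. At an unadjusted p under 0.05, 6 were lower (all genes, 5.25%) and 1 higher, and 6 were lower without overlap (all genes, 8.18%). The median log2 fold change was -0.05, with 12 of 23 negative, and -0.27 without replicate 3. Il13, the effector cytokine, was at 9.58, 8.08 and 7.09 CPM at 20 weeks and at 36.3, 22.4 and 12.7 CPM at 8 weeks, without overlap. In edgeR it passed without replicate 3 (log2 fold change -1.83, adjusted p = 0.0215) and not with it (-1.53 and 0.207). Il5, the eosinophil growth factor, was at 147 to 177 CPM at 20 weeks and 118 to 195 CPM at 8 weeks, with a log2 fold change of -0.05 (SE 0.20). Areg, the epithelial repair factor amphiregulin, was at 2.66, 1.34 and 1.49 CPM against 5.06, 4.04 and 4.54 CPM (log2 fold change -1.31, edgeR adjusted p = 0.379). Il4 and Csf2 overlapped between the times, at 16.1 to 31.9 and 13.3 to 44.4 CPM over the 6 libraries, and Il9 was at 0 in all of them.

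No ILC2 identity gene passed in edgeR or DESeq2 among 25 tested members. With all libraries 5 were higher without overlap (all genes, 8.25%), 1 was higher at an unadjusted p under 0.05 (all genes, 3.13%), 9 were negative, and the median log2 fold change was 0.06. Without replicate 3 the median was 0.19, 6 of 26 were negative and 6 were higher at an unadjusted p under 0.05. Calls at that p rose over all genes too, to 1514 of 14494 in either direction without replicate 3, from 1159 of 13831 with it. Il7r, the receptor for the survival cytokine IL-7, was at 732, 628 and 729 CPM at 20 weeks and 338, 520 and 488 CPM at 8 weeks (log2 fold change 0.63, edgeR adjusted p = 0.520), and Il1rl1 at 335, 282 and 294 against 202, 224 and 248 CPM (0.44, edgeR adjusted p = 0.622). Ets1, a transcription factor needed for ILC2 expansion, changed sign with the set of libraries: it was at 2305, 1827 and 1475 CPM at 20 weeks and at 1208, 2118 and 5848 CPM at 8 weeks, a log2 fold change of -0.71 with replicate 3 and 0.17 without it. Of 29 tested genes of migration and adhesion none passed in edgeR (2 did in DESeq2, both higher), and 15 were positive and 14 negative. Their median log2 fold change was 0.02, and -0.03 without replicate 3; 7 were higher and 2 lower without overlap (all genes, 8.25% and 8.18%). Among the 7 were Ccr9, a gut-homing chemokine receptor, at 23.8, 44.8 and 37.6 against 15.6, 13.1 and 20.6 CPM, Ccr2 at 508, 702 and 655 against 312, 381 and 401 CPM, and Itgae, which encodes CD103, at 74.7, 51.0 and 79.9 against 29.2, 45.7 and 26.5 CPM (edgeR adjusted p = 0.271, 0.379 and 0.310).

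With all libraries edgeR called no gene higher and DESeq2 called 31. The 10 genes of smallest p in that direction without overlap had edgeR adjusted p of 0.135 to 0.221. Hlf, a PAR bZIP transcription factor, was at 66.8, 67.2 and 75.1 CPM at 20 weeks and 41.3, 36.4 and 38.0 CPM at 8 weeks (log2 fold change 0.85, SE 0.15). Pcsk1, a prohormone convertase, was at 80.9, 70.0 and 66.2 against 43.6, 42.4 and 31.5 CPM (0.88, SE 0.19), and Zfp617, a zinc-finger gene, at 20.5, 18.5 and 22.1 against 9.43, 10.4 and 7.50 CPM (1.15, SE 0.23). Homer2, Tex15, Cntf and Sox11 were at 0 in every 8-week knockout library and at 1.12 CPM or less at 20 weeks, at least 3.19-fold, 3.69-fold, 5.02-fold and 2.85-fold higher against a floor of 3 reads per library. Spef2, Syce1 and Ccdc171 complete the 10. Rasal2, a Ras GTPase-activating protein, was called higher in edgeR without replicate 3 and not with it: it was at 1.07, 0.953 and 0.602 CPM at 20 weeks, at 0 in 8-week replicates 1 and 2, and at 1.18 in replicate 3, above all the 20-week libraries.

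Of 29 tested nuclear genes of oxidative phosphorylation, none passed in edgeR and 2, Uqcrq and Atp5o, did in DESeq2. At an unadjusted p under 0.05, 8 were lower (all genes, 5.25%), and the median log2 fold change was -0.23. Without replicate 3, 12 were lower at that p and the median was -0.39. All genes at that p, in either direction, were 1514 of 14494 without replicate 3 and 1159 of 13831 with it. Uqcrq, a subunit of complex III, was at 125, 123 and 146 CPM at 20 weeks and 234, 274 and 248 CPM at 8 weeks (log2 fold change -0.94, edgeR adjusted p = 0.325), and Atp5o, of ATP synthase, at 301, 297 and 298 against 446, 473 and 407 CPM (-0.57, 0.364). Bcl2, the survival factor, was higher without overlap, at 179, 175 and 179 against 99.8, 139 and 98.8 CPM (0.66, edgeR adjusted p = 0.347), and so was Txnip, a glucose-sensitive inhibitor of thioredoxin, at 180, 259 and 277 against 128, 126 and 71.3 CPM (1.13, edgeR adjusted p = 0.295).

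The WT libraries of the same times were read in the same fit, which used a shared estimate of the spread for both genotypes. Both genotypes developed in mixed chimeras and their libraries may share animals, so the WT values are not a separate replication. With time, 45 genes were called lower (0.325%) and 17 higher in WT cells, 0.448% of 13831 in either direction. All 9 genes that fell in knockout-labelled cells were negative in WT cells too, 8 of them were called there, and none passed the test of the genotype by time interaction (7 of all genes, 0.0506%), whose log2 values for the 9 ran from -1.69 to 1.10. The exception was Tph1, at 2.87, 1.54 and 2.51 CPM in WT cells of 20 weeks and 7.67, 7.38 and 4.83 CPM at 8 weeks (log2 fold change -1.52, edgeR adjusted p = 0.135); the difference between genotypes was -1.69 (SE 0.54) and did not pass. Of the immediate early, interferon-stimulated and DNA replication lists, 15, 18 and 16 tested members were lower without overlap in WT cells (all genes, 9.11%), and none of their members was called in the interaction. B-cell markers went another way in WT cells, with a median log2 fold change of 0.35 and Igkc at 51.8, 32.6 and 43.5 CPM at 20 weeks and 8.70, 13.9 and 7.12 CPM at 8 weeks, while the immediate early list had a WT median of -1.12.

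**Figure D4:**
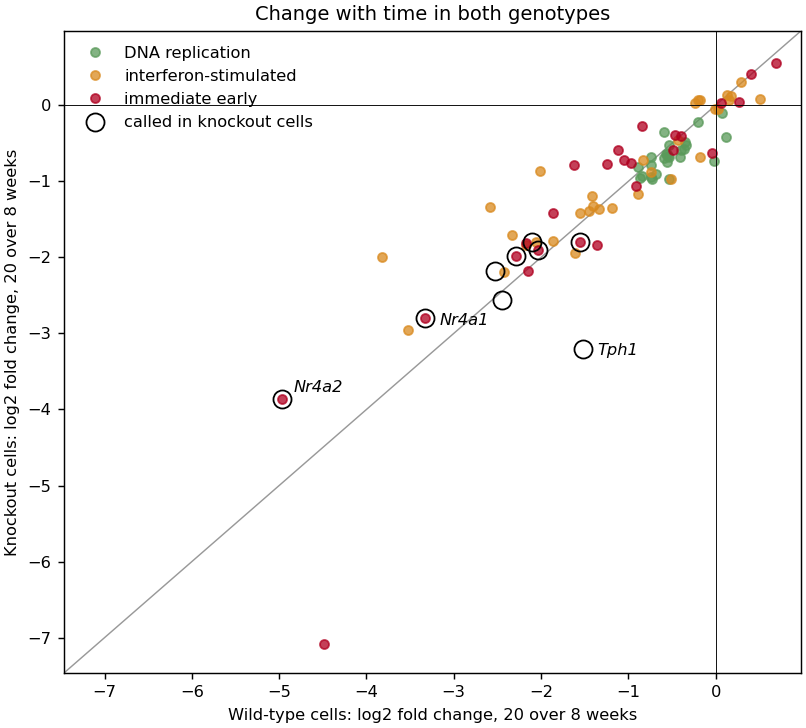
Log2 fold change, 20 over 8 weeks, in WT cells (horizontal) and knockout-labelled cells (vertical) for tested immediate early, interferon-stimulated and DNA replication genes; rings mark the 9 genes called in knockout-labelled cells and the grey line is equality. All 9 lie below 0 on both axes, with Tph1 farthest below the line.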

How the data were processed

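RNA was sequenced from sorted ILC2s in 12 libraries, 3 per group. Per the file headers, each deposited file gives the estimated count (expected number of reads) and the TPM of each transcript, made by the authors with sailfish 0.6.3 from k-mers of length 20 against Ensembl release 76. The submitters' processing notes also name STAR 2.0.4b and featureCounts 1.4.5, of Subread, and bcl2fastq. The labels give polyadenylated RNA, the protocol ribosomal RNA removal with random priming; the strand is not stated, so antisense or overlapping genes and close paralogs can share reads.

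Transcripts were matched to GENCODE M21 (97.2%) and their estimated counts summed to 29542 genes and rounded. Genes passing filterByExpr were fitted with edgeR 4.0.16 (R 4.3.3; TMM factors, quasi-likelihood, 4 group means, common biological coefficient of variation 0.374); autosomal genes were adjusted by the Benjamini-Hochberg method and called at an adjusted p under 0.05. Deposited TPM values entered only one alternative, as length-scaled counts. Alternatives used DESeq2 1.42.0, limma 3.58.1, other scalings, filters and sets of libraries. Log2 fold changes are 20 over 8 weeks; SE are from the fit. A floor covers counting error alone; PCR duplicates are not separate molecules.

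The members and the 45 gene lists were chosen with earlier results of these data known. Named genes are a set list, up to 15 per direction of smallest p called with or without 8-week replicate 3 (otherwise up to 10 not overlapping and not called), called members of each list or up to 4 of smallest p, and genes called in the interaction; predicted and non-coding genes were counted only.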

Additional observations from a re-analysis of the deposited data

Results flagged for a closer look

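The 7 genes called in the genotype by time interaction (edgeR, adjusted p under 0.05; 7 of 13831 genes, 0.0506%) changed differently with time in knockout-labelled and WT cells. The interaction value is the log2 fold change, 20 over 8 weeks, in knockout-labelled cells minus that in WT cells. It was -11.16 for Nefh, a neurofilament gene at 10.8 to 20.0 CPM in all 6 knockout-labelled libraries and at 0 in the 3 WT libraries of 8 weeks, where the fitted value is no bound. It was 2.87 for Fmo1, a flavin monooxygenase at 34.0 to 51.4 CPM in the knockout-labelled libraries and, in WT cells of 8 weeks, at 218, 148 and 210 CPM. It was 6.92 for Capn11, a calpain at 2.70 to 6.31 CPM in the knockout-labelled libraries and, in WT cells of 8 weeks, at 41.3, 37.5 and 34.4 CPM. The values were 2.75 for the predicted gene Gm9864, 3.47 for Adamts13, -2.03 for Pes1 and 5.12 for Hectd4. None of the 7 was called with time in knockout-labelled cells, where their log2 fold changes ran from -0.17 for Nefh to 1.02 for Hectd4. In each of the 7, the 3 WT libraries of 8 weeks lay outside the range of the other 9 libraries. Without 8-week replicate 3 edgeR called 11 of 14494 genes in the interaction, all 7 among them. Ets1 (-2.30, edgeR adjusted p = 0.0243) and Igkc (-6.96, 0.00303) were called there and not with all libraries (0.205 and 0.330). In WT cells Ets1 was at 944, 1137 and 944 CPM at 20 weeks and at 178, 181 and 185 CPM at 8 weeks.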

How the results depend on the processing

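The 9 genes that fell stayed negative in every alternative run. The count of 9 calls was 0 with the 6 knockout libraries alone (1202 at an unadjusted p under 0.05), 60 with these but without 8-week replicate 3, 67 without that library and WT 8-week replicate 2, 142 with DESeq2, and 0 with the thread number as a covariate. In alternatives chosen after seeing the data, all without 8-week replicate 3, it was 230 with DESeq2, 32 with limma-voom and 11 with the thread covariate. Leaving out 1 library at a time gave 0 to 27 calls. Deviations of same-numbered libraries of the 2 knockout groups correlated at -0.09, -0.06 and -0.11, so that these groups were not treated as paired; those of knockout and WT libraries correlated at 0.23, 0.15 and 0.11 at 8 weeks and at 0.07, 0.07 and 0.12 at 20 weeks. The replicate block gave 5 calls (7 without 8-week replicate 3), with Fos, Cdkn1a, Rasd1 and Cd69 at edgeR adjusted p of 0.0504, 0.0507, 0.0655 and 0.0899. The count of 7 interaction calls was 26 with DESeq2 (34 without 8-week replicate 3) and 16 without both libraries that stood apart. It was 14 with all chromosomes, 5 with the replicate block, and 5 to 11 leaving out 1 library. Libraries of 24 threads left 1 library in each group but the knockout 20-week one, and all 7 genes kept their direction there. Genes that did not pass changed sign as follows, in log2. Gata3 (-0.08) was 0.19 with knockout libraries alone without 8-week replicate 3, 0.20 without both libraries that stood apart, 0.30 with 24 threads and 0.38 with the thread covariate. Csf2 (0.01) was -0.34, -0.33, -0.057 and -0.057 there. Ets1 (-0.71) was 0.17 and 0.17 in the first 2. Rag1 (-0.26) was 0.38 and 0.37 in these, 1.48 with limma-voom and 0.35 with the replicate block. The thread covariate gave -0.27 for Cd3e (0.30), -0.067 for Icos (0.25) and -0.013 for Mki67 (0.20). With the block and without 8-week replicate 3, Cd3e was -0.083, Csf2 -0.37, Ets1 0.26, Gata3 0.36, Icos -0.037 and Rag1 1.35. Without that library, DESeq2, limma-voom and the thread covariate gave -0.35, -0.34 and -0.29 for Csf2, 0.16, 0.21 and 0.10 for Ets1, and 0.19, 0.19 and 0.48 for Gata3; DESeq2 and limma-voom gave 0.34 and 2.26 for Rag1; the covariate gave -0.22 for Cd3e and -0.13 for Icos. Leaving out 1 library gave ranges that cross 0 for Cd3e (-0.80 to 1.43), Csf2 (-0.33 to 0.41), Ets1 (-1.10 to 0.17), Gata3 (-0.22 to 0.20), Il2ra (-0.0029 to 0.27), Il4 (-0.30 to 0.15), Il5 (-0.23 to 0.11), Klrg1 (-0.20 to 0.052), Rag1 (-0.89 to 0.37) and Tcf7 (-0.040 to 0.24). With 3 libraries a group, and 0.101 to 0.166 CPM as the worth of 3 reads, small changes of low genes were not detectable.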
